A study of Mus musculus with 16 samples.

Results

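Germinal center B cells (GCB) that lack the kinase ROCK2 were compared with GCB that carry it, in 6 RNA-seq libraries (3 of each) of the 12 RNA-seq and 16 total samples of the series. All mice were C57BL/6, 10 weeks old, and had received 100 µg of the hapten-protein conjugate NP-CGG in alum 7 days earlier, and the cells were sorted from spleen. The control mice, called WT by the submitters, carried the Rock2flox/flox allele with no Cre named, and the conditional knockout (cKO) mice carried Rock2flox/flox with CD23-Cre. Both groups therefore share the floxed allele and differ in the Cre, and no control with the Cre alone was analysed here. CD23 is a surface receptor of mature follicular B cells, so the Cre is active before the germinal center stage. Whether the 3 libraries of a group came from separate mice is not given in the sources used here, so the p-values measure the spread between these libraries. The remaining 6 RNA-seq libraries, 3 WT and 3 cKO, were sorted follicular B cells (FoB) and serve as a reference for levels.

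ROCK2 is a serine/threonine kinase that is switched on by the GTPase RhoA and phosphorylates regulators of myosin and cofilin, which sets the contractility of the actin cytoskeleton. Germinal centers are the sites in spleen and lymph node where B cells activated by antigen divide, mutate their immunoglobulin genes and compete for help from follicular T cells. Cells in them switch off many genes of the resting B cell, such as homing receptors and BCL2, and depend on BCL6, a repressor that also holds back genes of the p53 response.

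The 6 GCB libraries held 25080547 to 26449299 counts each. Germinal center markers (Bcl6, Fas, S1pr2, Mef2b and Rgs13) summed to 1034 to 1279 CPM (TMM-scaled counts relative to library size) in WT GCB, 855 to 1169 CPM in cKO GCB and 89.8 to 127 CPM in WT FoB, so the sorted cells carried the markers of their label. Libraries carry the numbers 1 to 3 in every group, and same-numbered libraries deviated together. The first 2 principal components of the 6 GCB libraries, with 39.0% and 28.1% of the variance, separated the numbers, and the third, with 17.4%, separated cKO from WT. The number was therefore a block in the fit, and differences within each number are given beside the fitted values.

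Rock2 transcript was lower in cKO GCB but still present. Its level was 198, 154 and 145 CPM in the WT libraries and 119, 131 and 92.6 CPM in the cKO libraries of numbers 1 to 3. The groups did not overlap, and the smallest difference within a number was in number 2. The log2 fold change was -0.53 ± 0.12 (SE), with an adjusted p of 0.033 in edgeR's quasi-likelihood test with Benjamini-Hochberg adjustment over all tested genes. The call changed when libraries were left out: the adjusted p was 0.176, 0.0831 and 0.1005 without WT library 1, 2 or 3, 0.175 and 0.133 without cKO library 1 or 3, and 0.00839 without cKO library 2. The counts cover the whole gene, and the floxed part is not given in the sources used here, so RNA made from a recombined allele can count as Rock2. The gene also hosts a noncoding RNA by the authors' tag. Rock1, the paralog with overlapping substrates, had 267, 232 and 170 CPM in WT and 201, 230 and 148 CPM in cKO, and its log2 fold change of -0.21 ± 0.10 did not pass the test (adjusted p = 0.368).

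Of 13708 tested genes, 264 were higher in cKO GCB and 29 lower at an adjusted p under 0.05. These are 1.93% and 0.212% of the tested genes, the background against which each gene group is read. The higher genes had a median log2 fold change of 0.99 and 129 of them differed at least 2-fold, while the lower genes had a median of -0.49 and 2 differed at least 2-fold. All 293 differed in the same direction in each of the 3 numbers, as did 5122 of all 13708 tested genes. The test with the number as a block favours such genes, so this agreement is no separate support. In 206 of the 264 every cKO library lay above every WT library, a pattern seen in 5.42% of all tested genes. In 18 of the 29 every cKO library lay below every WT library, against 2.95% of all tested genes. Without the replicate block the same test called 14 genes higher and 0 lower (673 at an unadjusted p under 0.05), and all 14 were among the 264. These 14 were Dglucy, Phlda3, Cdkn1a, Zmat3, Serpine2, Inka2, Csf1, Epha2, Gm12666, Pml, Lgals3bp, Ccnd2, Aff1 and Adam19. The number called higher was 77, 146 and 138 without WT library 1, 2 or 3, 129 without cKO library 1, and 179 and 321 without cKO library 2 or 3. The number called lower was 4, 18 and 6, and then 6, 18 and 17, in the same order. In the authors' deposited table, 30 genes were higher and 1 lower in cKO GCB at a false discovery rate under 0.05 among 10518 genes, and all 31 are among the 293.

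**Figure D1:**
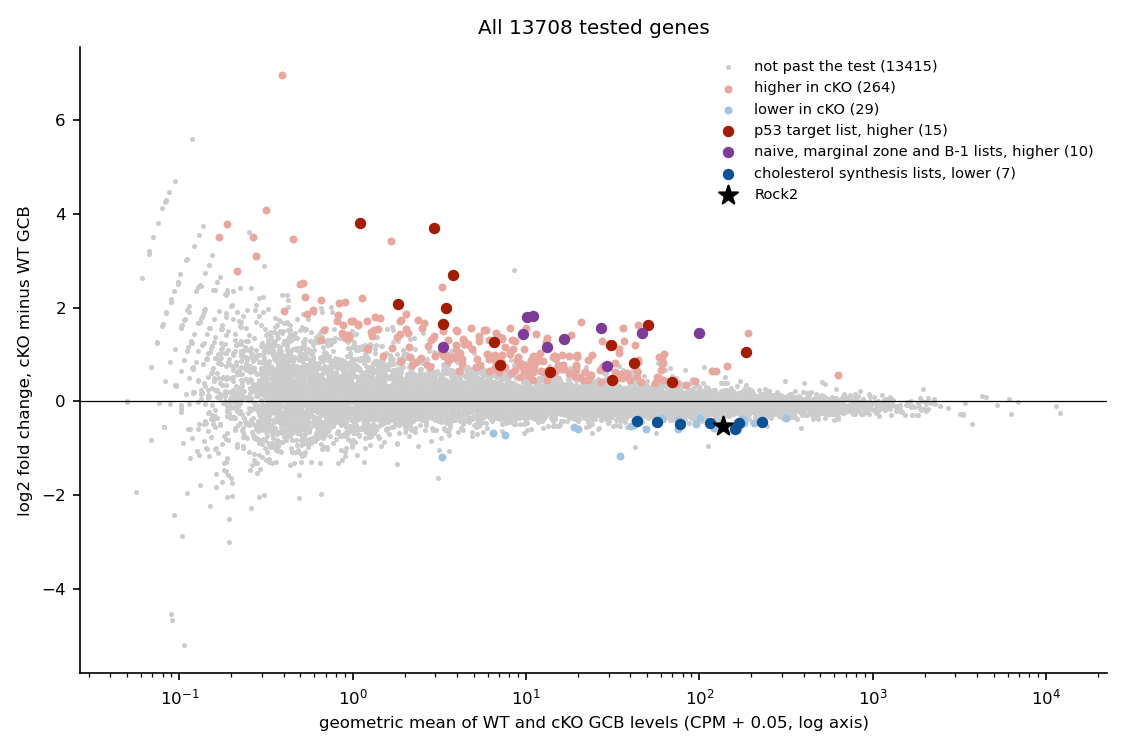
Log2 fold change, cKO minus WT GCB (vertical axis), against the geometric mean of the WT and cKO levels (CPM + 0.05, log axis) for the 13708 tested genes. The 264 higher genes spread over a wide range of fold changes, the 29 lower genes lie within a narrow band below 0, and the coloured points are called members of 3 gene groups and Rock2.

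Targets of the transcription factor p53, which answers DNA damage and other stress with cell cycle arrest or death, formed a clear group among the higher genes. Of 30 tested p53 target genes, 15 were higher and 0 lower, with a list median of 0.44 against -0.00103 for all tested genes. The list was put together with earlier results of these data known: without Dglucy, Pml, Epha2 and Cd80, which those results had shown to be higher, the count was 11 of 26. Over the 30 genes the count was 6 without the replicate block, and 8 and 9 without WT library 1 and 2. The 6 included Dglucy, Epha2 and Pml, which the earlier results had shown to be higher.

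Cdkn1a, which encodes the cyclin-dependent kinase inhibitor p21, had 1.07, 1.67 and 1.65 CPM in WT GCB and 8.53, 10.5 and 9.28 CPM in cKO GCB. Every cKO library was well above every WT library, and the 3 cKO libraries were alike. The log2 fold change was 2.69 ± 0.22 (adjusted p = 3.2e-05). Phlda3, a repressor of AKT signaling, had 0.229, 0.334 and 0.241 CPM in WT and 3.46, 3.5 and 4.51 CPM in cKO. Its groups were equally well apart, at a log2 fold change of 3.81 ± 0.30 (adjusted p = 3.2e-05). Zmat3, an RNA-binding regulator of splicing, had 20.8, 18.2 and 21.5 CPM in WT and 47.5, 47.3 and 45.9 CPM in cKO (log2 fold change 1.22 ± 0.11, adjusted p = 6.59e-05). Ccng1, cyclin G1, had 125, 154 and 106 CPM in WT and 241, 354 and 219 CPM in cKO (log2 fold change 1.07 ± 0.09, adjusted p = 3.2e-05). In both genes the WT and cKO libraries did not overlap, and the differences within the 3 numbers lay close together, from 1.09 to 1.37 for Zmat3 and from 0.95 to 1.20 for Ccng1 on the log2 scale. The WT FoB means of these 4 genes were also below cKO GCB: 0.962 CPM for Cdkn1a, 0.368 CPM for Phlda3, 10.7 CPM for Zmat3 and 108 CPM for Ccng1.

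Among the death genes of the list, Bax, Bbc3 and Tnfrsf10b rose, while Pmaip1 and Fas, given below, did not pass. Bax, the effector that permeabilises mitochondria, had 26.4, 29 and 38.2 CPM in WT and 54.4, 40.3 and 73.2 CPM in cKO, without overlap, at a log2 fold change of 0.82 ± 0.12. Bbc3, which encodes the BH3-only activator PUMA, had 1.18, 1.04 and 3.21 CPM in WT and 5.19, 2.29 and 10 CPM in cKO. Its groups overlapped, with library 3 the highest in both, and the log2 fold change was 1.66 ± 0.27. Tnfrsf10b, a death receptor for TRAIL, went from a mean of 0.88 ± 0.446 CPM (SD, n = 3) to 3.57 ± 0.327 CPM, a log2 fold change of 2.09 ± 0.37. Sesn2, a brake on mTORC1, the nuclease gene Aen, Ei24 and Dcxr rose by less, with log2 fold changes of 0.63, 0.46, 0.42 and 0.78. The adjusted p-values of these 7 genes ran from 0.00358 for Bax to 0.0436 for Aen. The calls of Bbc3 and Tnfrsf10b were lost without WT library 1, that of Tnfrsf10b also without WT library 2, and those of Aen and Ei24 without any one of the 6 libraries, whereas the call of Bax was kept in each case. The call of Sesn2 was lost without any library but cKO library 2, and that of Dcxr without WT library 1 or 2 or cKO library 1.

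Not every target moved. Mdm2, the ubiquitin ligase that degrades p53, had 142, 112 and 116 CPM in WT and 144, 129 and 117 CPM in cKO (log2 fold change 0.08 ± 0.09, adjusted p = 0.759). The log2 fold change of Trp53 itself was 0.09 ± 0.09 (adjusted p = 0.741), that of Sesn1 0.36 (adjusted p = 0.163) and that of Pmaip1, the BH3-only gene NOXA, 0.37 (adjusted p = 0.27). Fas, a p53 target that is also a germinal center marker, had 110, 116 and 93.5 CPM in WT and 78.6, 88.7 and 75.9 CPM in cKO, without overlap (log2 fold change -0.39 ± 0.11, adjusted p = 0.0998).

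The Cdkn1a promoter is shown because this gene had one of the clearest differences and its upstream window holds matches to the p53 half-site. In RefSeq annotation of GRCm38.p6, the 250 bases before the first annotated start lie on the plus strand of chromosome 17, chr17:29090729-29090978, and capitals mark 2 matches to the p53 half-site, searched on both strands. The 300-base window of a second annotated start of Cdkn1a, chr17:29093519-29093818, held 0 matches to it.
Cdkn1a: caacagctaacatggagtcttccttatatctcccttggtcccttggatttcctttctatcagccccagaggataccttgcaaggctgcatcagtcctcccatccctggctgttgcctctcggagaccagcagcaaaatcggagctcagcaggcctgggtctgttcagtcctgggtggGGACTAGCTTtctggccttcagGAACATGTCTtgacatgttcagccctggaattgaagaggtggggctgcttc
In windows of 300 bases (250 before and 50 after the start), 6 of the 13 p53 targets that rose and have a window held a half-site, as did 15.6% of all higher genes with a window, 22.2% of the lower genes and 7.97% of the 9667 tested genes with a window. A match is a description of the letters and not of binding.

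**Figure D2:**
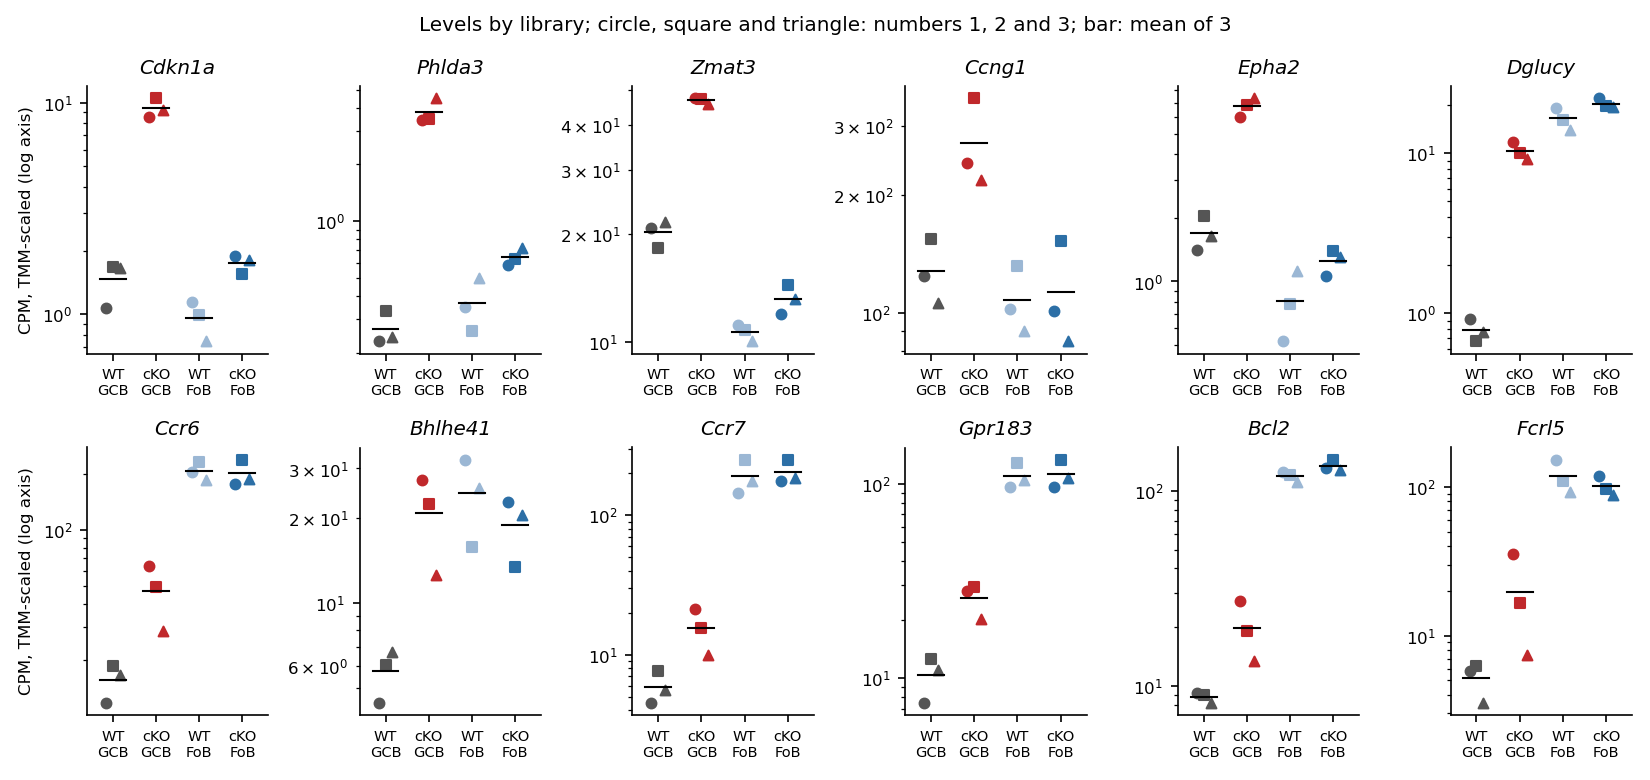
Level (CPM, log axis) of 12 genes in each library of the 4 groups, where shapes mark the numbers 1 to 3 and bars the mean of 3 libraries. In the upper panels Cdkn1a, Phlda3, Zmat3 and Epha2 are highest in cKO GCB, while in the lower panels Ccr6, Ccr7, Gpr183, Bcl2 and Fcrl5 in cKO GCB lie between WT GCB and both FoB groups.

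The 4 genes on the p53 list that were known to be higher behaved differently from one another. Dglucy, the gene of D-glutamate cyclase, had 0.917, 0.668 and 0.762 CPM in WT GCB and 11.8, 10 and 9.16 CPM in cKO GCB, a log2 fold change of 3.71 ± 0.15 (adjusted p = 2.57e-08). The WT FoB level of Dglucy was 16.5 CPM, so this gene was low in WT GCB alone among the 4 groups. Epha2, a receptor tyrosine kinase for ephrins, had 1.41, 2.04 and 1.65 CPM in WT GCB and 5.98, 6.84 and 7.35 CPM in cKO GCB (log2 fold change 1.99 ± 0.21, adjusted p = 0.000291), above the WT FoB mean of 0.805 CPM. Pml, which organises nuclear bodies, had 22.6, 32.6 and 31.4 CPM in WT GCB and 122, 81 and 64.9 CPM in cKO GCB (log2 fold change 1.64 ± 0.21, adjusted p = 0.00183), well below the WT FoB mean of 392 CPM. Cd80, a ligand of CD28, rose from 4.12 ± 0.662 to 10.1 ± 3.08 CPM (log2 fold change 1.28 ± 0.22, adjusted p = 0.00865). The call of Cd80 was lost without WT library 1 or 2.

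Several of the clearest single genes are not on the p53 list. The list is a choice, and whether these genes answer to p53 was not tested. Serpine2, an inhibitor of extracellular serine proteases, had 0.535, 0.459 and 0.441 CPM in WT GCB and 4.47, 6.72 and 4.51 CPM in cKO GCB (log2 fold change 3.43 ± 0.29, adjusted p = 4.58e-05). Inka2, an inhibitor of the p21-activated kinase PAK4, had 1.22, 1.34 and 1.56 CPM in WT and 7.03, 6.68 and 8.97 CPM in cKO (log2 fold change 2.45 ± 0.24, adjusted p = 0.000188). Csf1, the macrophage growth factor, had 2.64, 3.17 and 2.45 CPM in WT and 8.98, 9.09 and 6.44 CPM in cKO (log2 fold change 1.57 ± 0.16, adjusted p = 0.000291). In these 3 genes every cKO library lay above every WT library. Il9r, the interleukin 9 receptor, had 26.9, 15 and 20.8 CPM in WT and 91.7, 46.9 and 50.1 CPM in cKO (log2 fold change 1.56 ± 0.12, adjusted p = 3.12e-05), and Glipr1 rose from 24 ± 4.87 to 49.5 ± 14.7 CPM (log2 fold change 1.03 ± 0.10, adjusted p = 0.000151). Mgmt, which repairs alkylated guanine, rose from 0.495 ± 0.238 to 2.3 ± 0.583 CPM (log2 fold change 2.21 ± 0.32, adjusted p = 0.00358). None of these calls was lost when any single GCB library was left out.

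Gm12666 was nearly confined to libraries with the Cre. It had 1 count over the 3 WT GCB libraries and 181 counts over the 3 cKO GCB libraries, a ratio of 182 with a 95% counting interval (exact Clopper-Pearson) of 32.2 to 7216, which covers counting error only. Gm12666 was listed at 0 in the WT FoB libraries and had 0.478, 0.463 and 1.05 CPM in cKO FoB (adjusted p = 0.0737 in FoB). The difference was thus seen in both cell types. Gm12666 lies on chromosome 4 and Rock2 on chromosome 12, where its annotation starts at base 16894978. Dglucy and Cdkl1, which are also named here, lie on chromosome 12 as well, with starts at 100779057 and 69745167. Whether position on the chromosome had a part in any of these differences was not tested.

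A second large group was made of genes of the resting B cell, which WT germinal center cells keep low. Of 15 tested naive follicular B cell genes, 5 were higher and 0 lower, with a list median of 0.67, and of 16 marginal zone and B-1 cell genes, 5 were higher and 0 lower, with a median of 0.44. Without the replicate block 0 of the 15 naive genes were called. Among 19 chemokine, oxysterol and other positioning receptors, 3 were higher, Ccr6, Ccr7 and Gpr183, and all 3 are also on the naive list. Of all 264 higher genes, 204 (77.3%) had a WT FoB mean above the cKO GCB mean, against 50.2% of all tested genes.

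Ccr6, the receptor for CCL20, had 11.7, 18.4 and 16.6 CPM in WT GCB and 63.4, 49 and 28.5 CPM in cKO GCB, with a WT FoB mean of 207 CPM (log2 fold change 1.57 ± 0.22, adjusted p = 0.00249). The groups did not overlap, and cKO library 1 was the highest. Gpr183, a receptor for oxysterols that positions B cells at the outer follicle, had 7.49, 12.6 and 11.1 CPM in WT GCB and 28.2, 29.6 and 20.3 CPM in cKO GCB, without overlap (log2 fold change 1.34 ± 0.14, adjusted p = 0.000352). Ccr7, which guides cells towards the T cell zone, rose from 5.88 ± 1.57 to 15.7 ± 5.7 CPM (log2 fold change 1.43 ± 0.24, adjusted p = 0.00677), and this call was lost without WT library 1. S1pr1, the receptor for sphingosine-1-phosphate that guides exit from tissues, had 33.4, 31.6 and 20.7 CPM in WT GCB and 67.4, 43.3 and 28.6 CPM in cKO GCB, and it did not pass the test (log2 fold change 0.67 ± 0.17, adjusted p = 0.0544, with 1.01e-07 to 0.815 over the alternatives). Its level in both groups was far below the WT FoB mean of 378 CPM. Bcl2, the survival gene, had 9.17, 8.93 and 8.19 CPM in WT GCB and 27.1, 19.1 and 13.4 CPM in cKO GCB, without overlap (log2 fold change 1.15 ± 0.16, adjusted p = 0.00241).

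Among marginal zone and B-1 cell genes, Fcrl5, an inhibitory Fc receptor-like protein, had 5.81, 6.26 and 3.53 CPM in WT GCB and 35.2, 16.5 and 7.42 CPM in cKO GCB (log2 fold change 1.80 ± 0.28, adjusted p = 0.00506). Bhlhe41, a repressor that shapes B-1 cells, had 4.43, 6.05 and 6.7 CPM in WT GCB and 27.3, 22.5 and 12.6 CPM in cKO GCB (log2 fold change 1.83 ± 0.29, adjusted p = 0.00542). Neither gene overlapped between groups, and in both the cKO level was highest in library 1. Plac8, Cd1d1, which presents lipids, and the integrin gene Itgb7 had log2 fold changes of 1.47, 1.17 and 0.75, with adjusted p-values from 0.0118 to 0.0331. The calls of Fcrl5 and Plac8 were lost without WT library 1, that of Cd1d1 without WT library 1 or cKO library 1, and that of Itgb7 without any library but cKO library 3.

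The 2 groups differed in how even they were over the numbers. For the 5 called naive genes the median differences were 2.16, 1.23 and 0.84 on the log2 scale in numbers 1, 2 and 3, and for the 5 called marginal zone and B-1 genes they were 2.55, 1.25 and 0.50. For the 15 called p53 targets they were 1.24, 1.31 and 1.05. Over all 264 higher genes the medians were 1.3, 0.96 and 0.67. Number 1 gave the largest difference for 180 of the 264, and for 6184 of all 13708 tested genes. Without cKO library 1, 5 of the naive genes and 11 of the p53 targets were still called.

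**Figure D3:**
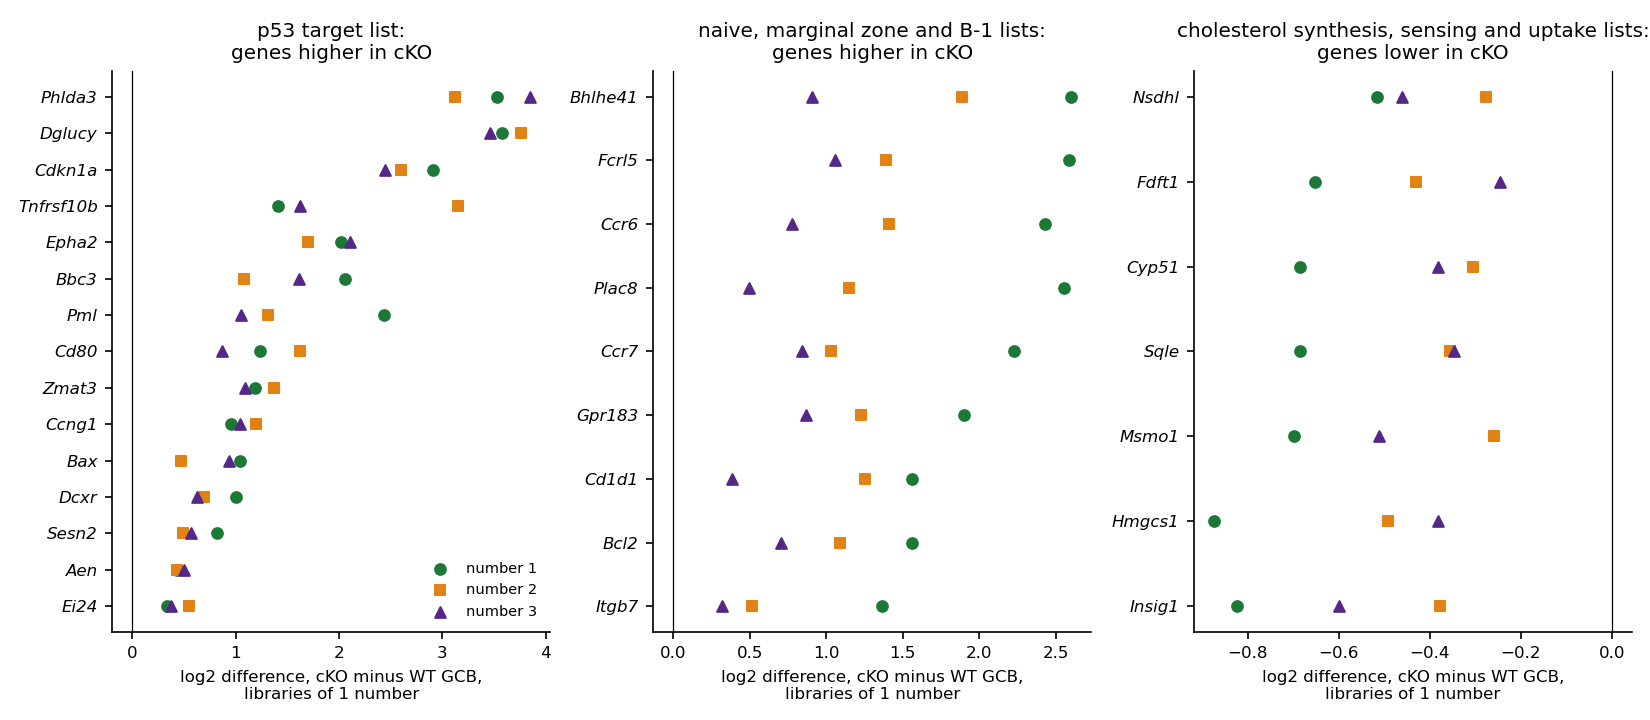
Log2 difference in CPM between the cKO and WT GCB libraries of the same number (horizontal axis) for the called genes of 3 groups that are named here (vertical axis), with 1 symbol per number. In the middle panel number 1 gives the largest difference for each gene, while in the left panel the order of the 3 numbers varies from gene to gene.

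The naive markers fixed for the check of cell types (here Fcer2a, Ighd, Ccr7, Gpr183 and Ccr6) moved with this group. Their summed level was 422, 436 and 476 CPM in WT GCB libraries 1 to 3 and 756, 578 and 505 CPM in cKO GCB libraries 1 to 3, against 4954 to 7461 CPM in WT FoB. All 5 were detected, and 3 of the 5 rose. Fcer2a, which encodes CD23, had 296, 317 and 382 CPM in WT GCB and 421, 368 and 363 CPM in cKO GCB (adjusted p = 0.572), and Ighd, the IgD constant region, had 102, 80.1 and 61.5 CPM and 222, 116 and 83.2 CPM (adjusted p = 0.148). Expressed as a share of the WT FoB mean, the gain from WT to cKO GCB was 1.52% for Ighd, 3.51% for Fcer2a, 5.14% for Ccr7, 9.33% for Bcl2, 14.3% for Gpr183, 15.1% for Ccr6, 42.3% for Il9r, 57.9% for Dglucy and 61.3% for Bhlhe41. Over the 204 higher genes with a WT FoB mean above the cKO GCB mean, the gain ran from 3.23% to 66.9%, with a median of 15.3%. Whether FoB among the sorted cKO cells had a part in these differences was not tested, and more cells of a type and more RNA per cell cannot be told apart in bulk libraries.

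Genes linked to memory B cells overlapped with this group. Of 16 such genes, 6 were higher and 0 lower, with a list median of 0.67. Ccr6, Gpr183, Bcl2, Il9r, Cd80 and Zeb2 made up the group, and Zeb2, a zinc finger repressor, rose from 11.6 ± 2.4 to 18.5 ± 6.64 CPM (log2 fold change 0.64 ± 0.13, adjusted p = 0.0176).
Ccnd2, cyclin D2, rose from 23.4 ± 4.41 to 58.1 ± 14.7 CPM (log2 fold change 1.29 ± 0.15, adjusted p = 0.00063), below its WT FoB mean of 193 CPM. Of 35 B cell transcription factors, 6 were higher and 0 lower. Beside Bhlhe41 and Zeb2 they were Klf3, Tcf7, Lef1 and Aff1, with log2 fold changes of 1.28, 1.29, 0.97 and 1.28, and Klf3 and Aff1 were at 162 and 208 CPM in WT FoB. The call of Aff1 was kept whichever library was left out, that of Klf3 was lost without WT library 1, that of Zeb2 without WT library 1 or 3 or cKO library 1 or 2, and those of Tcf7 and Lef1 without any library but cKO library 3.

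Plasma cell genes showed a smaller shift. Of 16 tested, 4 were higher and 0 lower, with a list median of 0.27. Prdm1, which encodes the plasma cell regulator BLIMP1, had 2.45, 3.92 and 2.57 CPM in WT and 7.78, 8.17 and 4.96 CPM in cKO, without overlap (log2 fold change 1.22 ± 0.21, adjusted p = 0.00929). Irf4, needed for the same fate, had 42.6, 54.2 and 37.2 CPM in WT and 97.8, 93.6 and 59.4 CPM in cKO, also without overlap (log2 fold change 0.89 ± 0.15, adjusted p = 0.00748). Fkbp11 and Creld2, both of the secretory pathway, had log2 fold changes of 1.85 and 0.39, and 2 chaperones of that pathway outside the list, Pdia4 and Hsp90b1, had 0.76 and 0.56. Of the defining markers, Xbp1 (0.26, adjusted p = 0.191), Jchain (-0.10, adjusted p = 0.96) and Sdc1 (0.88, adjusted p = 0.0864) did not pass. The call of Irf4 was lost without WT library 1, that of Prdm1 without WT library 1 or cKO library 1, and those of Fkbp11, Creld2, Pdia4 and Hsp90b1 without WT library 1 and at least 2 others.

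Of the 29 lower genes, 7 belong to cholesterol synthesis. Of 22 tested genes from the mevalonate pathway and from squalene to cholesterol, 0 were higher and 7 were lower, against 0.212% of all tested genes, and the medians of the 2 lists were -0.33 and -0.32. Among the 7 were Hmgcs1, which stands near the start of the mevalonate pathway, and Fdft1, Sqle, Cyp51, Msmo1 and Nsdhl of the later steps. Of 13 genes that sense or take up sterols, 2 were lower, among them Insig1, and 1 was higher.

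Hmgcs1, HMG-CoA synthase, had 212, 213 and 167 CPM in WT GCB and 115, 152 and 128 CPM in cKO GCB, without overlap (log2 fold change -0.58 ± 0.11, adjusted p = 0.0152). Insig1, which retains the sensor of the pathway in the endoplasmic reticulum, had 99.99, 92.8 and 86.4 CPM in WT and 56.5, 71.4 and 57 CPM in cKO (log2 fold change -0.60 ± 0.11, adjusted p = 0.0152). Every WT library of Insig1 was above every cKO library. Sqle, squalene epoxidase, fell from 135 ± 9.52 to 98.5 ± 15.3 CPM and Fdft1, squalene synthase, from 66.2 ± 8.58 to 48.5 ± 5.07 CPM, both without overlap, with log2 fold changes of -0.46 and -0.45. Cyp51, Msmo1 and Nsdhl overlapped between groups, with log2 fold changes of -0.45, -0.49 and -0.42.

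The remaining members lay mostly in the same direction without passing the test. Lss was at 58.4 ± 5.32 CPM in WT and 46.6 ± 3.13 CPM in cKO (log2 fold change -0.33, adjusted p = 0.0906), and Idi1 at 15.7 ± 2.78 and 11.2 ± 4.04 CPM (-0.52, adjusted p = 0.136). Ebp was the 1 member of the 22 above 0, at 0.16 ± 0.09 (adjusted p = 0.49). In WT FoB the 7 genes were lower than in cKO GCB, for example 60.7 CPM of Hmgcs1 and 32.4 CPM of Sqle. Acsl3, which activates fatty acids, was the 1 member called lower of 13 genes of fatty acid synthesis, at -0.50 ± 0.12 (adjusted p = 0.0421).
The count of 7 changed when libraries were left out: it was 0 without WT library 1, 2 without WT library 2 or 3, and 0, 4 and 3 without cKO library 1, 2 or 3. It was also 0 without the replicate block. The call of Hmgcs1 was lost without WT library 1 or cKO library 1, and that of Insig1 without WT library 1 or 3 or cKO library 1.

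**Figure D4:**
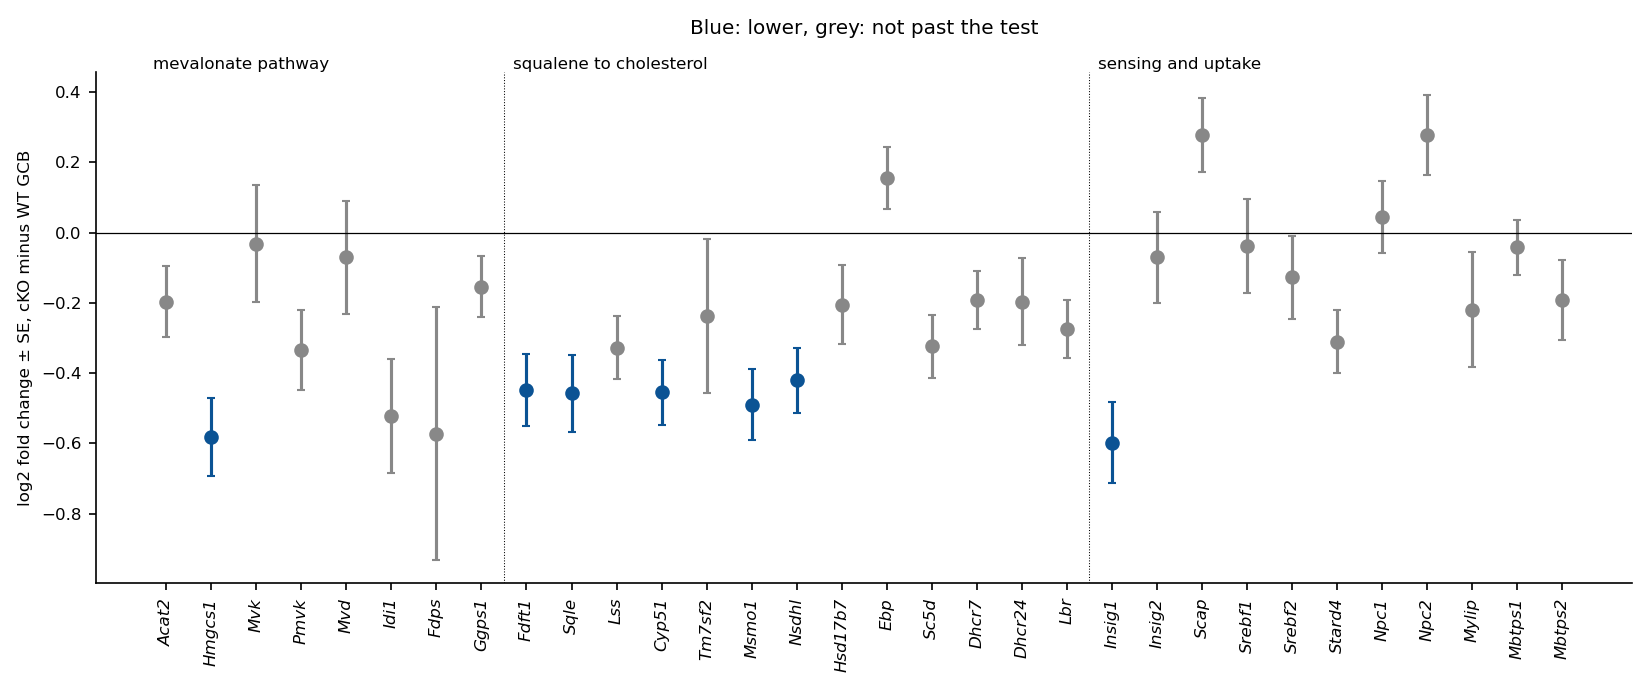
Log2 fold change ± SE, cKO minus WT GCB (vertical axis), for genes of the mevalonate pathway, of the steps from squalene to cholesterol, and of sterol sensing and uptake (horizontal axis). Blue points passed the test as lower, and all genes shown of the first 2 groups but Ebp lie below 0.

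The promoters of Hmgcs1 and Insig1 are shown because these genes fell and carry both motifs that were searched for, the core of the sterol response element (CACNCCA) and the NF-Y box (CCAAT), on either strand. Both stretches are the 250 bases before the annotated start on the plus strand in RefSeq annotation of GRCm38.p6, chr13:119690101-119690350 for Hmgcs1 and chr5:28071162-28071411 for Insig1, and capitals mark the motifs.
Hmgcs1: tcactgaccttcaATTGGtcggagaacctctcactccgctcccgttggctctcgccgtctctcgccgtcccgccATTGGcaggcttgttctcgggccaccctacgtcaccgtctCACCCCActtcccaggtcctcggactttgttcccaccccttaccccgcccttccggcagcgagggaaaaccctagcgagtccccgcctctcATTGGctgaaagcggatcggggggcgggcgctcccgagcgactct
Insig1: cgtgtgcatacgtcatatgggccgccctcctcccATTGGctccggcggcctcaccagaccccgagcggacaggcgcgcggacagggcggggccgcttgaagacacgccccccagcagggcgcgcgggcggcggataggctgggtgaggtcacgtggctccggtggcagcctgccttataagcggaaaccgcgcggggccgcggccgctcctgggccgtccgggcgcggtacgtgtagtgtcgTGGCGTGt
The NF-Y box was in the 300-base windows of all 5 sterol genes that fell and have a window, of 16 of 17 cholesterol synthesis genes, of 72.2% of the lower genes, of 40.9% of the higher genes and of 43.1% of the 9667 tested genes with a window. The sterol core was in 3 of the same 5 genes, in 3 of the 17, in 33.3% of the lower genes, in 25.8% of the higher genes, in 6 of the 13 p53 targets that rose and in 20.5% of the tested genes. With CACCCCA in place of CACNCCA it was in 1 of the 5 and in 9.11%. The p53 half-site was in 2 of the 5 and in 4 of the 17.

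The other lower genes were of mixed kinds. Rgs2, which dampens G protein signaling, had 306, 141 and 170 CPM in WT GCB and 183, 122 and 99.4 CPM in cKO GCB, with overlap, and was the 1 member called lower of 17 RGS and G protein genes (log2 fold change -0.58 ± 0.11, adjusted p = 0.0139). Rgs16 of the same list rose from 0.254 ± 0.0935 to 0.941 ± 0.206 CPM (adjusted p = 0.0481), a low level in all libraries. Tuba1a, an alpha tubulin, had 146, 181 and 119 CPM in WT and 93.9, 120 and 86.7 CPM in cKO (log2 fold change -0.56 ± 0.09, adjusted p = 0.00748), and its call was kept whichever library was left out. Cd86, a costimulatory ligand, fell from 111 ± 12.5 to 81.4 ± 18.8 CPM (log2 fold change -0.47 ± 0.10, adjusted p = 0.0231), while Cd80, the other ligand of the same receptors, was higher as given above. Prkacb, a catalytic subunit of protein kinase A, the lipid flippase gene Atp8a1 and the oxysterol-binding protein gene Osbpl9 had log2 fold changes of -0.45, -0.46 and -0.34.
Hbb-bh1, an embryonic beta-like globin, had 48.9, 52.7 and 54.6 CPM in WT GCB and 21.2, 26.9 and 22.2 CPM in cKO GCB, without overlap (log2 fold change -1.16 ± 0.28, adjusted p = 0.0492). Reads shared with other beta globin genes are uncertain, since the handling of near-identical genes is not given in the sources used here. Its WT FoB mean was 0.624 CPM. Igf2bp3, Cdkl1, Vwa3b and 9930012K11Rik had log2 fold changes of -0.58, -0.53, -0.71 and -0.68. The calls of the lower genes of mixed kinds other than Tuba1a were each lost when WT library 1 was left out, and those of Hbb-bh1, Osbpl9 and Vwa3b also without any other single GCB library.

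Few genes around the ROCK pathway itself passed the test. Of 21 actomyosin genes 1 was higher (Marcks, a membrane actin crosslinker), of 30 regulators of small GTPases 1 (Vav3, an exchange factor), of 16 PAK and LIMK genes 2 (Inka2 and Limk1) and of 30 actin and SRF target genes 2 (Capg and Myo1f), with 0 lower in each list and list medians from -0.06 to 0.04. Limk1, the kinase that inactivates cofilin and is itself activated by ROCK, had 2.33, 2.46 and 3.73 CPM in WT and 7.29, 5.03 and 7.38 CPM in cKO, without overlap (log2 fold change 1.22 ± 0.16, adjusted p = 0.00178). Capg, which caps actin filaments, had 16, 28.2 and 32.5 CPM in WT and 96.7, 68.1 and 64.7 CPM in cKO, also without overlap (log2 fold change 1.64 ± 0.22, adjusted p = 0.00227), below its WT FoB mean of 384 CPM. Myo1f, an unconventional myosin, Marcks and Vav3 had log2 fold changes of 0.99, 0.92 and 0.93, and the calls of Myo1f and Marcks were lost without WT library 1.

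Among guidance genes, 3 of 20 were higher and 0 lower. Plxna1, a semaphorin receptor, had 2.1, 2 and 2.85 CPM in WT and 5.75, 5.47 and 8.75 CPM in cKO, without overlap (log2 fold change 1.51 ± 0.21, adjusted p = 0.00227), and its co-receptor family member Nrp2 rose from 1.01 ± 0.358 to 3.31 ± 0.701 CPM (adjusted p = 0.0142), a call that was lost without WT library 1 or 3 or cKO library 2. Epha2, given above, was the third. Of 30 adhesion genes, 5 were higher and 0 lower, with a list median of 0.08. Beside Itgb7 they included Adam19, a metalloprotease (44.1 ± 3.3 to 89.5 ± 17 CPM), Selplg, the selectin ligand PSGL-1 (11.8 ± 2.07 to 19.7 ± 2.81 CPM), and the integrin gene Itgam (0.494 ± 0.0321 to 1.73 ± 0.989 CPM). Of these 3, Adam19 kept its call whichever library was left out.
Of 15 annexin and S100 genes, 5 were higher and 0 lower: S100a10, S100a6, S100a11, Anxa6 and Ahnak. S100a10, the partner of annexin A2, had 7.18, 17.4 and 10.4 CPM in WT and 43, 45.2 and 22.6 CPM in cKO, without overlap (log2 fold change 1.71 ± 0.22, adjusted p = 0.00162), with a WT FoB mean of 164 CPM. Ahnak, a large scaffold protein that binds S100A10, rose from 10.3 ± 1.54 to 26.4 ± 13.1 CPM (log2 fold change 1.31 ± 0.26, adjusted p = 0.0187). All 5 had a WT FoB mean above the cKO GCB mean. Without WT library 1 the calls of S100a6, S100a11, Anxa6 and Ahnak were lost, so that S100a10 alone of the 5 was still called.

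Genes of secreted and surface signals were also among the higher ones. Of 25 secreted factors 5 were higher and 0 lower: Csf1 and Serpine2, given above, Ccl22, Lgals3bp and Lgals3. Ccl22, a chemokine for CCR4-bearing T cells, had 6.08, 10.2 and 8.43 CPM in WT and 22.2, 21.2 and 20.5 CPM in cKO, without overlap (log2 fold change 1.36 ± 0.25, adjusted p = 0.0117). Its WT FoB mean was 6.22 CPM, so cKO GCB was above both WT cell types, and its call was lost without WT library 1. Lgals3bp and Lgals3, a galectin ligand and a galectin, rose from 3.97 ± 0.0712 to 11.2 ± 3.71 CPM and from 1.15 ± 0.253 to 3.41 ± 1.33 CPM, and both calls were kept whichever library was left out.
Of 25 cytokine receptor genes 5 were higher and 0 lower. Beside Il9r they were Il2ra, Il6st, Il27ra and Csf2rb, with log2 fold changes of 0.94, 0.81, 0.94 and 0.78, each with a WT FoB mean above the cKO GCB mean. Without WT library 1 the calls of Il2ra, Il27ra and Csf2rb were lost, and that of Il2ra was also lost with the GCB libraries alone. Of 19 costimulatory genes 3 were higher (Cd80, Tnfsf4 and Vsir) and 1 lower (Cd86), of which Tnfsf4 alone was still called without WT library 1. Tnfsf4, the OX40 ligand, had 0.191, 0.0417 and 0.0802 CPM in WT and 1.2, 1.97 and 0.682 CPM in cKO, without overlap (log2 fold change 3.47 ± 0.53, adjusted p = 0.005), a low level that was kept as a call whichever library was left out.
Of 32 interferon-stimulated genes 3 were higher (Pml, Lgals3bp and Mx1) and 0 lower, with a list median of 0.30, and of 19 MHC class I genes 1 was higher (H2-Q7), a gene with near-identical neighbours. Mx1, an antiviral GTPase, had 2.37, 0.376 and 1.04 CPM in WT and 8.68, 1.61 and 2.58 CPM in cKO, with overlap between the groups (log2 fold change 1.73 ± 0.26, adjusted p = 0.00358).
The naming rule also took genes at low levels. The chemokine receptor gene Ccr1, the interferon-induced GTPase gene Gbp7, Prrg4, Tcn2, which carries vitamin B12, and Igsf3 had log2 fold changes from 1.58 to 1.78, with cKO means from 2.07 to 4.55 CPM. Igsf3 was the one of these 5 with a WT FoB mean below 1 CPM, at 0.0883 CPM. Gimap4, a GTPase of lymphocytes, rose from 93.9 ± 20.8 to 151 ± 42.5 CPM. The calls of Ccr1, Igsf3 and Gimap4 were lost without WT library 1.

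Genes of the germinal center program lay mostly below 0 and gave no calls in the fit of all 12 libraries. Of 21 tested germinal center genes and 10 dark zone genes, 0 were called in either direction, with list medians of -0.16 and -0.12, and 18 of the 21 and all 10 lay below 0. Bcl6, the master repressor of the stage, had 398, 368 and 479 CPM in WT and 306, 265 and 402 CPM in cKO (log2 fold change -0.37 ± 0.12, adjusted p = 0.151). At an unadjusted p under 0.05, 1 of the 21 was higher and 4 were lower, against 1851 of all 13708 tested genes in either direction. DESeq2 called 1 of the 21 lower and limma-voom 0. The call depended on the libraries in the fit: with the 6 GCB libraries alone, in which 246 genes were higher and 67 lower over all tested genes, 5 of the 21 passed as lower. Among these were Nuggc, a nuclear GTPase gene of germinal center cells, Fas, Basp1 and Bcl6, with log2 fold changes from -0.58 to -0.36. The adjusted p in that fit was 0.031 for Fas and 0.0443 for Bcl6, and over the alternatives it ran from 0.024 to 1 and from 0.0198 to 1.
Of 25 replication, 28 mitosis and 23 DNA repair genes 0 were called, with medians of -0.08, -0.16 and -0.06. Of the 28 mitosis genes 27 lay below 0. The same lack of calls held for 22 B cell receptor signaling genes (median -0.16, all 22 below 0), 13 MHC class II genes (-0.02), 14 MYC network genes (0.08), 20 NF-kB genes (0.10), 21 glycolysis genes (0.08), 24 oxidative phosphorylation genes (-0.01) and 25 ribosomal protein genes (0.03). Among these 215 genes 7 were higher and 10 lower at an unadjusted p under 0.05, the latter with 6 of the B cell receptor genes. Over all 13708 tested genes 1851 were under that value in either direction. DESeq2 called 2 higher and 1 lower, limma-voom 1 higher, and the fit of GCB alone 1 higher (Nfkb2). Of 21 light zone genes 2 were higher (Ccnd2 and Irf4) and 1 lower (Cd86), with a median of 0.18. A median near 0 with no calls does not show that the genes were equal, since the test could miss small differences at 3 libraries a group.

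Markers of other cell types were low in all 6 GCB libraries. T cell markers summed to 147 to 181 CPM in WT and 163 to 176 CPM in cKO, of which Cd2 (86.8 and 90.8 CPM) and Lck (67.6 and 62.7 CPM) made up most. Cd3e, part of the T cell receptor complex, was at 0.199 ± 0.104 CPM in WT, against 0.57 ± 0.314 CPM in cKO (adjusted p = 0.162). Natural killer cell markers summed to 12.7 to 16.7 CPM in WT and 18.2 to 22.6 CPM in cKO, with 0 of 10 called. Nearly all of these markers lay above 0: 14 of 16 T cell markers with a list median of 0.78, and 10 of 10 natural killer cell markers with a median of 0.76. At an unadjusted p under 0.05, 7 and 6 of them were higher and 0 lower, against 1851 of all 13708 tested genes in either direction. Without Cd2 and Lck, the other 14 T cell markers summed to 10.5, 12 and 10.9 CPM in WT and 19.1, 23.4 and 11.4 CPM in cKO, with cKO library 2 the highest. Tcf7 and Lef1, called above, are also genes of T cells. Cd28 was the 1 T cell marker called, from 0.653 ± 0.187 to 2.56 ± 1.88 CPM (adjusted p = 0.0398), and Zbtb46 the 1 dendritic cell marker, from 0.416 ± 0.132 to 1.38 ± 0.377 CPM (adjusted p = 0.033). Both calls were lost without any library but cKO library 3. The part of T and natural killer cells in the higher genes of low level was not tested.

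Immunoglobulin segments gave 19 of the 293 calls. Of 246 tested segments, 17 were higher and 2 lower. Of 106 kappa V segments 11 were higher and 0 lower, and of 107 heavy chain V segments 5 were higher and 2 lower. Igha, the IgA constant region, had 61.7, 248 and 50.1 CPM in WT and 300.5, 497 and 106 CPM in cKO (log2 fold change 1.47 ± 0.27, adjusted p = 0.0119), with overlap between the groups. The call of Igha was lost without WT library 1 or 3. Segments share sequence, and reads of one can be counted to another.

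The differences were larger in GCB than in FoB for the genes where the 2 effects could be told apart. In FoB the same fit called 0 genes between cKO and WT (299 at an unadjusted p under 0.05, against 1851 in GCB), while limma-voom called 2 and DESeq2 7. The test of the difference between the 2 effects called 36 genes, or 0.263% of those tested, each with the GCB effect above the FoB effect, and 0 in the other direction. Of the 264 higher genes 34 were among them, and of the 29 lower genes 0. The number was 1 without the replicate block, 8, 20 and 11 without WT library 1, 2 or 3, and 28, 8 and 153 without cKO library 1, 2 or 3.
The p53 targets Cdkn1a, Phlda3, Zmat3 and Ccng1 were among the 34, with log2 fold changes in FoB of 0.85, 0.80, 0.30 and 0.04. Rock2 had -0.43 ± 0.12 in FoB and -0.53 ± 0.12 in GCB, with a difference of -0.10. In FoB it was at 151, 129 and 132 CPM in WT and 123, 87.4 and 96.5 CPM in cKO, without overlap. Of the 264 higher genes 54.9% lay above 0 in FoB, with a median of 0.01, against 49.6% of all tested genes. The lower genes had a median of -0.09 in FoB, and 3 of the 29 lay above 0.

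**Figure D5:**
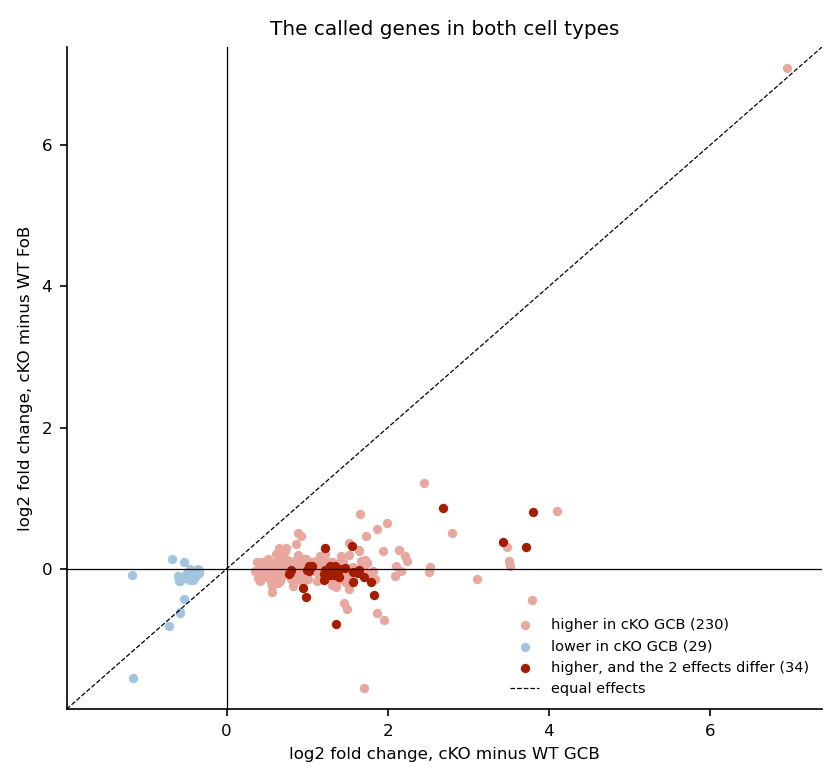
Log2 fold change, cKO minus WT, in GCB (horizontal axis) and in FoB (vertical axis) for the 293 genes called in GCB, where the dashed line marks equal effects. Most points lie near 0 on the FoB axis, the 34 dark points passed the test of the difference, and Gm12666 at the upper right has about the same fold change in both cell types.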

How the data were processed

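Polyadenylated RNA was measured in 12 libraries (3 in each of 4 groups), prepared with Nextera reagents and read on a HiSeq2500 instrument, per the labels' protocols. The authors deposited raw counts per Ensembl gene for 25640 genes, log2 CPM for the 10518 genes they kept, and a table of log2 fold changes with p-values and false discovery rates. The submitters' processing notes name mm10, Bowtie2, MACS2 and edgeR, while the sources used here do not give the counter, annotation, strand use or design, so overlapping, antisense and near-identical genes carry an uncertain share of reads. The 4 ATAC-seq samples were not analysed here.

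The raw counts went into edgeR 4.0.16 under R 4.3.3. After filterByExpr over the 4 groups, 13708 genes remained, TMM factors scaled the libraries, and the quasi-likelihood F test was fitted to all 12 libraries with the replicate number as a block (6 residual degrees of freedom), and p-values were adjusted by Benjamini-Hochberg (threshold 0.05). Levels are TMM-scaled CPM, and fold changes are log2 ± SE. Differences within a number use log2 CPM with a prior count of 2. Over the genes, deviations from the group means correlated between same-numbered libraries of different groups (r from 0.478 to 0.753 in 18 pairs, and from 0.526 to 0.599 between WT and cKO GCB) and not between other numbers (-0.654 to 0.0952 in 36 pairs). The pairing is read from the data, since the labels do not say what a number shares. Xist in GCB libraries 1 to 3 was at 763, 121 and 286 CPM in WT and 708, 234 and 300 CPM in cKO. Mitochondrial genes held 2.53, 5.50 and 1.30% of the counts in these WT libraries, and 2.52, 4.51 and 1.05% in cKO. The part of these differences in the calls was not tested. Comparison of all libraries found 0 identical pairs. The fit was tested on simulated data. Depth limits low genes: values under 1 CPM rest on few reads, and counting intervals cover counting error only.

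Gene symbols were matched for 25607 IDs. Promoter windows came from RefSeq (GRCm38.p6).

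The genes, lists and tests were chosen with earlier results of these data known. The naming rule took Rock2 and Rock1, then, among called genes that reached 2 CPM in their higher group and kept 1 direction in all 3 numbers, the 25 higher and 20 lower by fold, the 10 smallest p-values, the 8 higher and 8 lower by difference in CPM, and, without that filter, up to 4 genes per list by smallest p. Aen, Ei24, Dcxr, S100a6, Ccl22, Tcf7, Lef1, Csf2rb, Itgam, Igha, Nuggc, Basp1 and the named genes that did not pass, other than Rock1, Fas, Bcl6, S1pr1, Idi1, Rgs13, Cd3e and Nfkb2, were named after their values were seen. Some genes that enter the list counts are not reported here by name. Alternatives were no block, the GCB libraries alone, RLE factors, no filter, DESeq2 1.42.0, limma-voom (limma 3.58.1), both forms of the quasi-likelihood test, a threshold of 0.01, and leaving out each GCB library or each number.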

Additional observations from a re-analysis of the deposited data

Results flagged for a closer look

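In the fit of all 12 libraries, the effect of the knockout differed between the cell types for 23 of the genes named above. In each the log2 fold change in GCB was above that in FoB by the test of the difference in edgeR's quasi-likelihood fit, with adjusted p-values from 1.44e-06 for Dglucy to 0.0455 for Adam19. The number of calls in this test changed with the replicate block and with the libraries in the fit, as given above. Most genes were named by their difference in GCB, which favours large values here. The difference, GCB minus FoB on the log2 scale, was 3.39 for Dglucy, 3.05 for Serpine2 and 3.01 for Phlda3. It was 2.20 for Bhlhe41, 2.14 for Ccl22, 1.98 for Fcrl5, 1.84 for Cdkn1a, 1.82 for S100a10, 1.75 for Csf1, 1.70 for Pml, 1.65 for Capg and 1.62 for Ccr6. For Lgals3bp it was 1.46, for Myo1f 1.39, for Gpr183 1.31, for Ccnd2 1.3, for Aff1 1.25, for Limk1 1.23, for Il9r 1.23, for Adam19 1.05, for Ccng1 1.03, for Glipr1 0.98 and for Zmat3 0.92. Groups of 3 libraries are too small for the search for single libraries far from the rest.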

How the results depend on the processing

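The 293 genes kept the direction of their difference in every alternative that measured them, but the number of calls did not hold. Without the replicate block, 14 genes were higher and 0 lower, with 6 p53 targets, 0 cholesterol genes and 0 naive genes called, 1 difference between the effects in GCB and FoB, and a log2 fold change of -0.54 for Rock2 that did not pass (adjusted p = 0.563). With the GCB libraries alone and the block, 67 genes were lower and 8 naive genes higher. With RLE factors the differences between effects numbered 22. With no low-count filter, 634 were higher, 123 lower, 9 naive genes higher, 361 differences between effects and 57 calls in FoB. DESeq2 gave 420 higher, 129 lower, 161 differences and 7 calls in FoB, limma-voom 53 lower and 2 calls in FoB, and the newer form of the quasi-likelihood test, run after the data were seen, 44 lower. At a threshold of 0.01, 100 genes were higher, 3 lower and 0 cholesterol genes lower. Leaving out 1 GCB library, or all 4 libraries of a number, gave 41 to 321 higher genes, 3 to 18 lower genes, 8 to 13 p53 targets, 0 to 4 cholesterol genes, 1 to 7 naive genes, 2 to 153 differences, 0 to 2 calls in FoB, and a log2 fold change of -0.71 to -0.42 for Rock2 (adjusted p from 0.00839 to 0.392). The settings for the differences and for FoB were chosen after the data were seen. The cause of these shifts was not tested.

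Of 112 genes followed one by one through the alternatives, 11 passed in all 17 alternatives, 6 of them p53 targets, and none of the 11 was a lower gene. The 6 included Dglucy, Epha2 and Pml, which earlier results of these data had shown to be higher, so their passing is no separate support for the p53 group. Of 104 such genes with a call, 39 kept it whichever single GCB library was left out, and WT library 1 was the one whose omission lost the most, at 65. With 3 libraries a group, small differences and genes under 1 CPM could be missed.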
